A study of Mus musculus with 23 samples.

Results

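The genes described here make the building blocks of RNA and DNA in mouse colonic epithelium. They comprise 38 genes for the synthesis and salvage of purines and pyrimidines and for the supply of deoxynucleotides (dNTPs), and they were chosen by gene symbol from lists of enzymes. All 38 were found among the 24917 gene loci counted. All 38 passed the filter on low counts in the main fits of batch 1, batch 2 and both batches. Adssl1 passed it in only 8 of the 11 fits of batch 1 that left out 1 sample. Total RNA depleted of ribosomal RNA was sequenced from colonic epithelium, which was taken off the whole colon with EDTA, of male C57BL/6 mice (C57BL/6J in the study's methods) fed from 6 weeks of age. LF mice received feed with 10% fat for 43 weeks, HF mice received feed with 60% fat for 43 weeks, and HFLF mice received the 60% fat feed for 15 weeks followed by the 10% fat feed for 28 weeks. The labels place 4 LF, 3 HF and 4 HFLF samples in batch 1 and 4 LF, 3 HF and 5 HFLF samples in batch 2. What distinguishes the batches is not given in the labels, and it is not known whether same-numbered samples of the batches come from the same mouse. The samples of a diet in both batches together outnumber the mice per diet that the methods describe, so fits and SDs over both batches may count a mouse more than once. Samples held between 29189922 and 65320947 counted reads, and epithelial markers (11 genes, among them Epcam and Krt20) summed to between 13041 and 17282 CPM (edgeR's unit for counts divided by the TMM-scaled library total) in every sample.

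Cells obtain nucleotides by de novo synthesis and by salvage. De novo synthesis builds the purine ring step by step on phosphoribosyl pyrophosphate (PRPP), which the Prps enzymes make, and builds the pyrimidine ring before it is joined to PRPP. Salvage returns free bases and nucleosides to the pool. Kinases then raise monophosphates to diphosphates and triphosphates, and ribonucleotide reductase, made of the large subunit Rrm1 and a small subunit, converts ribonucleotides to deoxynucleotides. Rrm2 is the small subunit of dividing cells, while Rrm2b, its p53-inducible relative, also serves cells that do not divide. Thymidylate is made by Tyms or salvaged by thymidine kinase, of which Tk1 is cytosolic and linked to S phase and Tk2 is mitochondrial. In the colon, dividing cells lie in the lower crypt and cells mature as they move to the surface. In bulk samples a smaller share of cells of one type and less RNA per cell cannot be told apart.

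The stretches upstream of 4 genes of the deoxynucleotide route are shown as examples. These genes had large fold changes between HF and LF mice in batch 1 and share a pathway, but they are not the only such genes. Each run holds the 140 bases before the annotated start in the RefSeq annotation of GRCm38.p6, read 5′ to 3′ on the gene's strand. Capitals mark a CCAAT box (the motif bound by NF-Y) or a CACGTG E-box on either strand.
Rrm1 (chr7:102441555-102441694, plus strand): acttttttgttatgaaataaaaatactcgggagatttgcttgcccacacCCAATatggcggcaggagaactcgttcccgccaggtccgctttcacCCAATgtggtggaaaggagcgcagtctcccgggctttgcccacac
Rrm2 (chr12:24708114-24708253, plus strand): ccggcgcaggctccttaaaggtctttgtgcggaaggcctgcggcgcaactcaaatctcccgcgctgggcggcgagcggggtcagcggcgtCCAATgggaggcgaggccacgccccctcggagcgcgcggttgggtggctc
Tyms (chr5:30073626-30073765, minus strand): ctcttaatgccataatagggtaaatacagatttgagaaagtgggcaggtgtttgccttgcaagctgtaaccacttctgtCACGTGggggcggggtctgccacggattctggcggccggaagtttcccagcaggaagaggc
Tk1 (chr11:117826015-117826154, minus strand): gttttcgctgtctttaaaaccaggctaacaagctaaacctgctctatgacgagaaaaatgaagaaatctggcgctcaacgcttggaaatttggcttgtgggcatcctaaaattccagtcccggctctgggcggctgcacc
Counted from the start, CCAAT began at -91 and -45 in Rrm1 and at -50 in Rrm2. The E-box CACGTG began at -61 in Tyms, and none of the motif letters searched was in the window of Tk1. Dut, of the same route, is not shown, though its mean was 12.3 CPM in LF and 18.7 CPM in HF mice of batch 1. Its window held none of these letters either. A promoter window from 250 bases before to 50 bases after the start was at hand for 35 of the 38 genes. CCAAT stood on either strand in 34.3% of these 35 windows and in 38.5% of the 11231 windows of all tested genes that had one. CACGTG stood in 17.1% and 9.93%, and an E2F motif (TTTCCCGC, TTTCGCGC, TTTGCCGC or TTTGGCGC) in 5.71% and 4.05%. No motif contains another, and CACGTG reads the same on both strands. These shares are descriptions of letters and not of binding.

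In LF mice the levels of the 38 genes, as CPM per kilobase of exon (mean ± SD over the 8 LF samples of both batches), ranged widely. Cmpk1, the kinase that converts CMP and UMP to diphosphates, was the most abundant at 163 ± 27.5. Nme2, a nucleoside diphosphate kinase, followed at 89.0 ± 20.2, and the purine salvage enzymes Aprt and Hprt and the guanylate kinase Guk1 stood at 63.1 ± 7.87, 59.8 ± 7.55 and 58.8 ± 10.1, values that did not differ beyond their spread. Ring enzymes lay lower, from 40.7 ± 8.35 for Paics to 6.47 ± 0.776 for Dhodh. At the foot of the order stood Rrm2 (4.53 ± 1.58), the deoxycytidine kinase Dck (4.26 ± 0.498), Rrm2b (2.52 ± 0.399), the dCMP deaminase Dctd (1.94 ± 0.333) and Adssl1 (0.140 ± 0.0676), the muscle form of adenylosuccinate synthase. Adssl1 held only 2 to 17 reads per sample, and every other gene held at least 106.

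The first question was whether RNA levels of nucleotide synthesis genes differed between mice kept on the high-fat feed and mice kept on the low-fat feed. Higher levels in HF mice were found for nucleotide kinases, dNTP genes, the last steps to GMP and CTP, and the salvage genes Hprt and Tk1, while the enzymes that build the purine and pyrimidine rings were not called. A gene was called when it changed more than 1.2-fold with an adjusted p under 0.05 (edgeR's quasi-likelihood F test, Benjamini-Hochberg over all genes tested). In batch 1, 32 of 38 genes were higher in HF mice, with a median log2 fold change of 0.20 against -0.004 over all 14428 genes tested, but none was called in either direction (0% of all genes called higher and 0% lower). At an unadjusted p under 0.05, 15 of the 38 were higher and 0 lower in batch 1, where 12% of all genes were higher at that threshold. DESeq2 called 5 of them higher (Dut, Nme1, Rrm1, Rrm2 and Tk1), with 1.46% of its 19237 genes called higher. These 19237 genes include genes of low count that the edgeR filter left out, so the share is not on the same base as the edgeR shares. Leaving out HF replicate 2 of batch 1, which had the lowest HF value for most of these genes, gave 7 calls in edgeR. In batch 2, 31 genes were higher in HF mice, the median was 0.14 against -0.01 over all genes, and 5 were called higher and 0 lower, where 3.03% of all genes were called higher and 4.4% lower. The 5 calls of batch 2 (Cmpk1, Gmps, Hprt, Nme1 and Nme2) were near the threshold: 0 remained without LF replicate 1, LF replicate 3, HF replicate 2 or HF replicate 3, 1 without LF replicate 2 and 2 without HFLF replicate 5. With both batches in 1 fit and batch as a covariate, 14 of 38 genes were called higher and 0 lower, where 9% of all genes were called higher and 9.11% lower. Without HF replicate 3 of batch 1 that count was 7. Rrm1, Rrm2, Nme1, Tk1 and Dut are in the study's own list of changed genes, which was made on samples numbered like those of batch 1, although the batch is not stated, so batch 1 is not independent evidence of their direction.

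**Figure D1:**
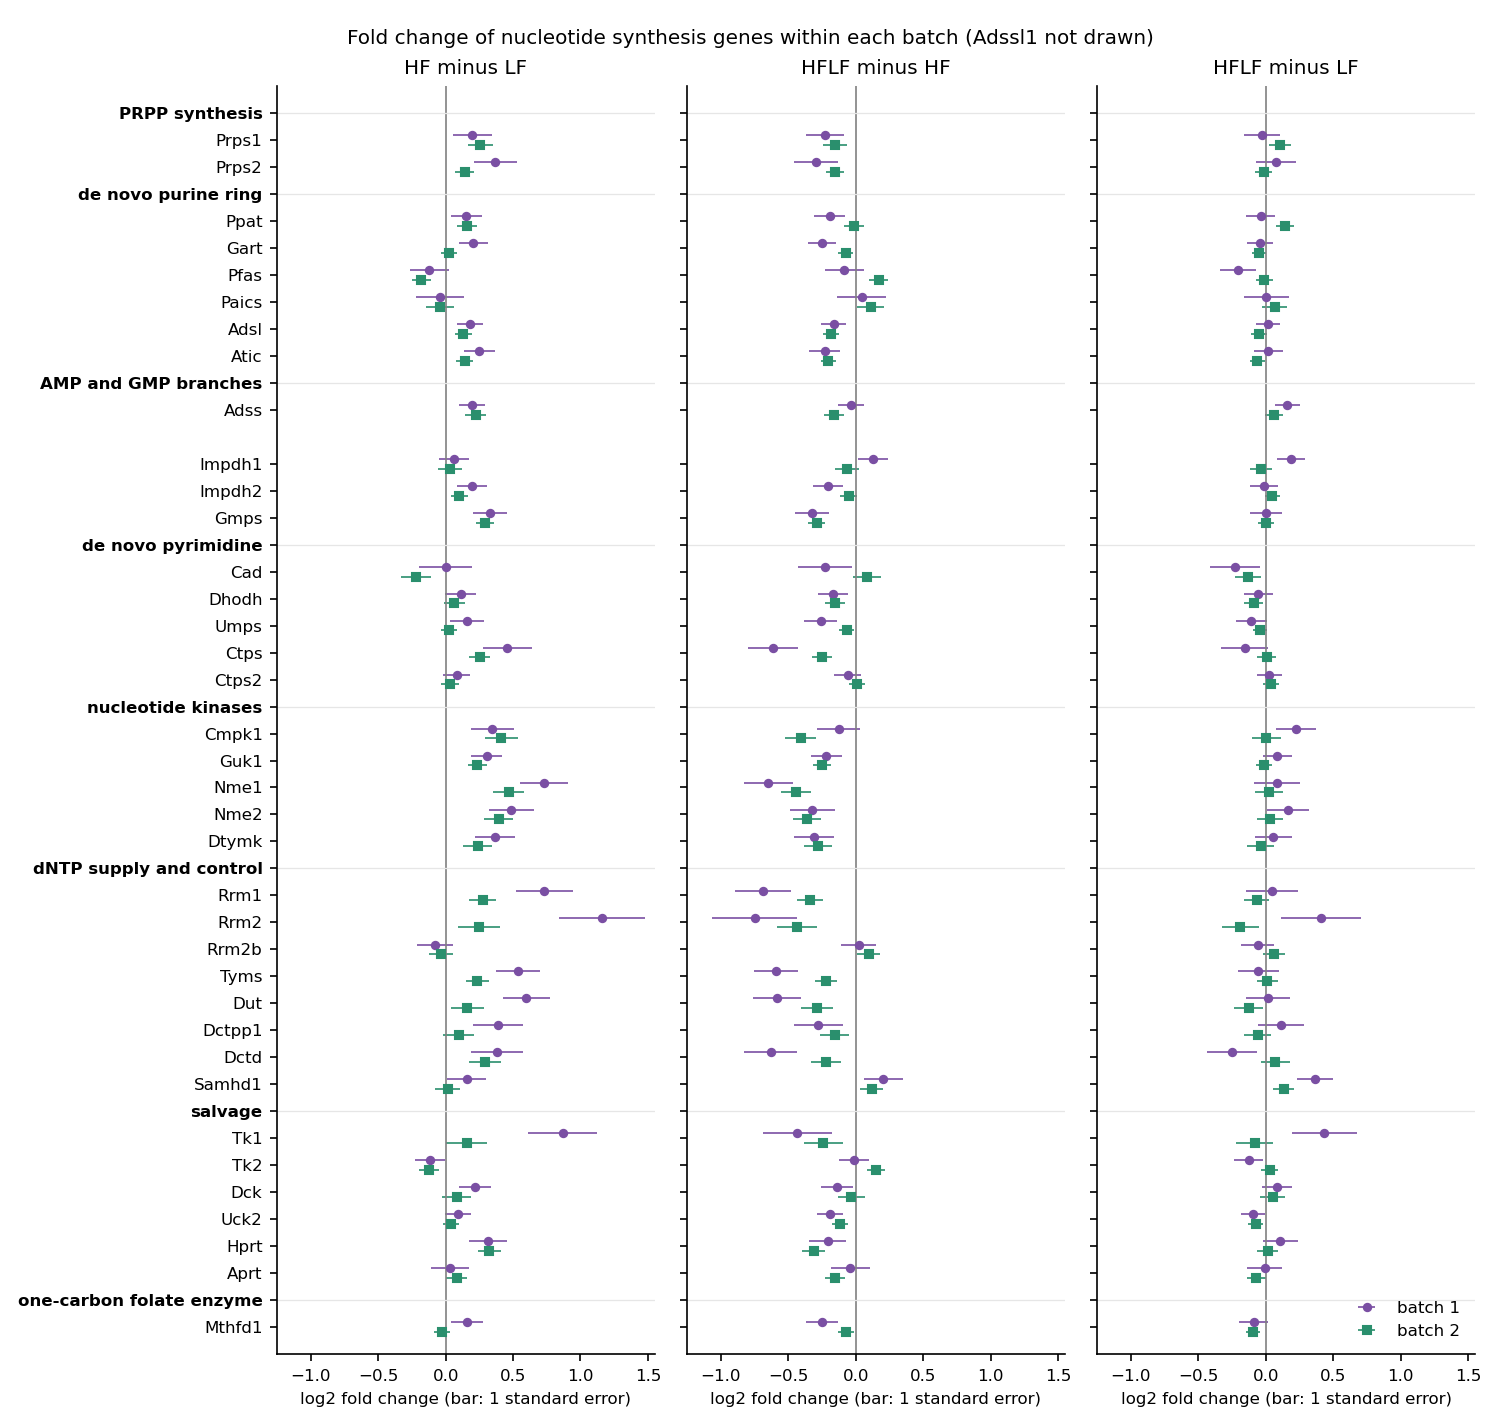
Log2 fold change (horizontal axis, with 1 standard error as bar) of 37 nucleotide synthesis genes by role, for batch 1 (circles) and batch 2 (squares), in HF minus LF, HFLF minus HF and HFLF minus LF; Adssl1, with 2 to 17 reads per sample, is not drawn. The nucleotide kinases and most dNTP genes lie to the right of 0 in HF minus LF and to the left in HFLF minus HF, and Rrm2 has the largest difference, 1.16 in batch 1.

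Of the 8 genes of dNTP supply and control, 5 were called higher in HF mice over both batches (Rrm1, Rrm2, Tyms, Dut and Dctd), and none in either batch alone. The median log2 fold change of the 8 was 0.46 in batch 1 and 0.20 in batch 2. Rrm2, the small subunit of ribonucleotide reductase, stood in batch 1 at 6.46, 5.43, 9.33 and 6.47 CPM in LF, 10.8, 9.90 and 25.7 CPM in HF and 13.3, 8.32, 7.40 and 7.83 CPM in HFLF mice. In batch 2 it stood at 13.3, 12.4, 11.8 and 14.2 CPM in LF, 14.2, 17.2 and 14.8 CPM in HF and 9.75, 12.9, 9.99, 8.68 and 15.3 CPM in HFLF mice. Every HF sample lay above every LF sample in both batches, narrowly so in batch 2, and HF replicate 3 of batch 1 was above all other samples. The fold change of Rrm2 was 2.23 in batch 1 (log2 1.16 ± 0.32 SE, adjusted p = 0.155), 1.19 in batch 2 (log2 0.25 ± 0.15 SE, adjusted p = 0.272) and 1.62 over both (log2 0.69 ± 0.20 SE, adjusted p = 0.0180). Without HF replicate 3 of batch 1 the log2 value of Rrm2 over both batches was 0.42 and it was not called.

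Rrm1, the large subunit that carries the catalytic site, was at 34.4, 33.3, 35.9 and 41.8 CPM in LF, 53.2, 47 and 81.1 CPM in HF and 51.7, 39.4, 30.4 and 28.6 CPM in HFLF mice of batch 1. In batch 2 the values were 53.9, 51.4, 51.7 and 63.3 CPM in LF, 62.7, 75.5 and 61.8 CPM in HF and 53.6, 53.5, 47.9, 46.1 and 61.7 CPM in HFLF mice. All HF samples of batch 1 exceeded the LF samples, whereas in batch 2 LF replicate 4 reached into the HF range. Over both batches Rrm1 rose 1.42-fold (log2 0.51 ± 0.13 SE, adjusted p = 0.00888), with log2 0.73 ± 0.21 SE in batch 1 and 0.27 ± 0.10 SE in batch 2, and it was also called without HF replicate 3 of batch 1 (log2 0.37). Rrm2b, the other small subunit, was at 13.9, 12.8, 11.4 and 13.7 CPM in LF, 12.04, 11.7 and 12.9 CPM in HF and 9.87, 12.1, 14.2 and 13.5 CPM in HFLF mice of batch 1. In batch 2 Rrm2b was at 9.02, 11.03, 9.53 and 10.6 CPM in LF, 10.2, 10.3 and 8.91 CPM in HF and 10.8, 10.8, 9.99, 10.4 and 10.6 CPM in HFLF mice. Its groups overlapped in both batches, and its log2 fold change over both was -0.06 ± 0.07 SE (adjusted p = 0.591). As a ratio of CPM, Rrm2 per Rrm2b averaged 0.546 ± 0.183 (SD, n = 4) in LF and 1.24 ± 0.643 (n = 3) in HF mice of batch 1, and 1.30 ± 0.1503 (n = 4) and 1.57 ± 0.156 (n = 3) in batch 2.

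Tyms, which makes thymidylate from dUMP, was at 22.7, 21.6, 23.9 and 26.1 CPM in LF, 29.9, 26.7 and 45.95 CPM in HF and 25.7, 23.3, 22.2 and 19.6 CPM in HFLF mice of batch 1. In batch 2 it was at 27.3, 27.8, 27.3 and 29.5 CPM in LF, 30.6, 35.2 and 33 CPM in HF and 26.7, 28.6, 26.1, 25.96 and 33.5 CPM in HFLF mice. HF and LF samples did not overlap in either batch. Tyms rose 1.31-fold over both batches (log2 0.39 ± 0.10 SE, adjusted p = 0.00899), with log2 0.54 ± 0.16 SE in batch 1 and 0.23 ± 0.09 SE in batch 2. Without HF replicate 3 of batch 1 the value was 0.26 and Tyms was not called.

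Dut, the dUTPase that keeps uracil out of DNA and yields dUMP, was at 12.3, 11.2, 11.3 and 14.5 CPM in LF, 19, 13.9 and 23.1 CPM in HF and 13.9, 14.6, 11.4 and 9.98 CPM in HFLF mice of batch 1. In batch 2 it was at 17.1, 17.1, 15.2 and 20.99 CPM in LF, 17.4, 22.3 and 19.6 CPM in HF and 14.1, 17.9, 15.7, 14.5 and 18.5 CPM in HFLF mice. The HF and LF ranges overlapped in both batches. The fold change of Dut over both was 1.30 (log2 0.38 ± 0.12 SE, adjusted p = 0.0194), and 0.29 on the log2 scale and not called without HF replicate 3 of batch 1. Dctd, which deaminates dCMP to dUMP, was at 3.60, 3.64, 3.96 and 5.89 CPM in LF, 5.11, 5.83 and 5.77 CPM in HF and 4.43, 3.52, 3.24 and 3.18 CPM in HFLF mice of batch 1. In batch 2 Dctd was at 4.71, 4.71, 4.04 and 4.49 CPM in LF, 5.00, 5.46 and 5.98 CPM in HF and 4.28, 4.95, 5.08, 4.04 and 5.18 CPM in HFLF mice. LF replicate 4 of batch 1 lay above all HF values there, and in batch 2 the HF values were all above the LF values. Dctd rose 1.26-fold over both batches (log2 0.34 ± 0.12 SE, adjusted p = 0.0330), and kept this call in 16 of 23 fits that left out 1 sample, with log2 values from 0.31 to 0.44. It was lost without LF replicate 1 or 2 or any HF replicate of batch 1 (0.32 without HF replicate 3), or LF or HF replicate 3 of batch 2. The remaining members of the group, the dCTP pyrophosphatase Dctpp1 and the dNTP triphosphohydrolase Samhd1, which degrades dNTPs, had log2 fold changes over both batches of 0.24 ± 0.11 SE (adjusted p = 0.103) and 0.09 ± 0.09 SE (adjusted p = 0.484). Dctpp1 was called without HF replicate 2 of batch 1 (0.31).

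**Figure D2:**
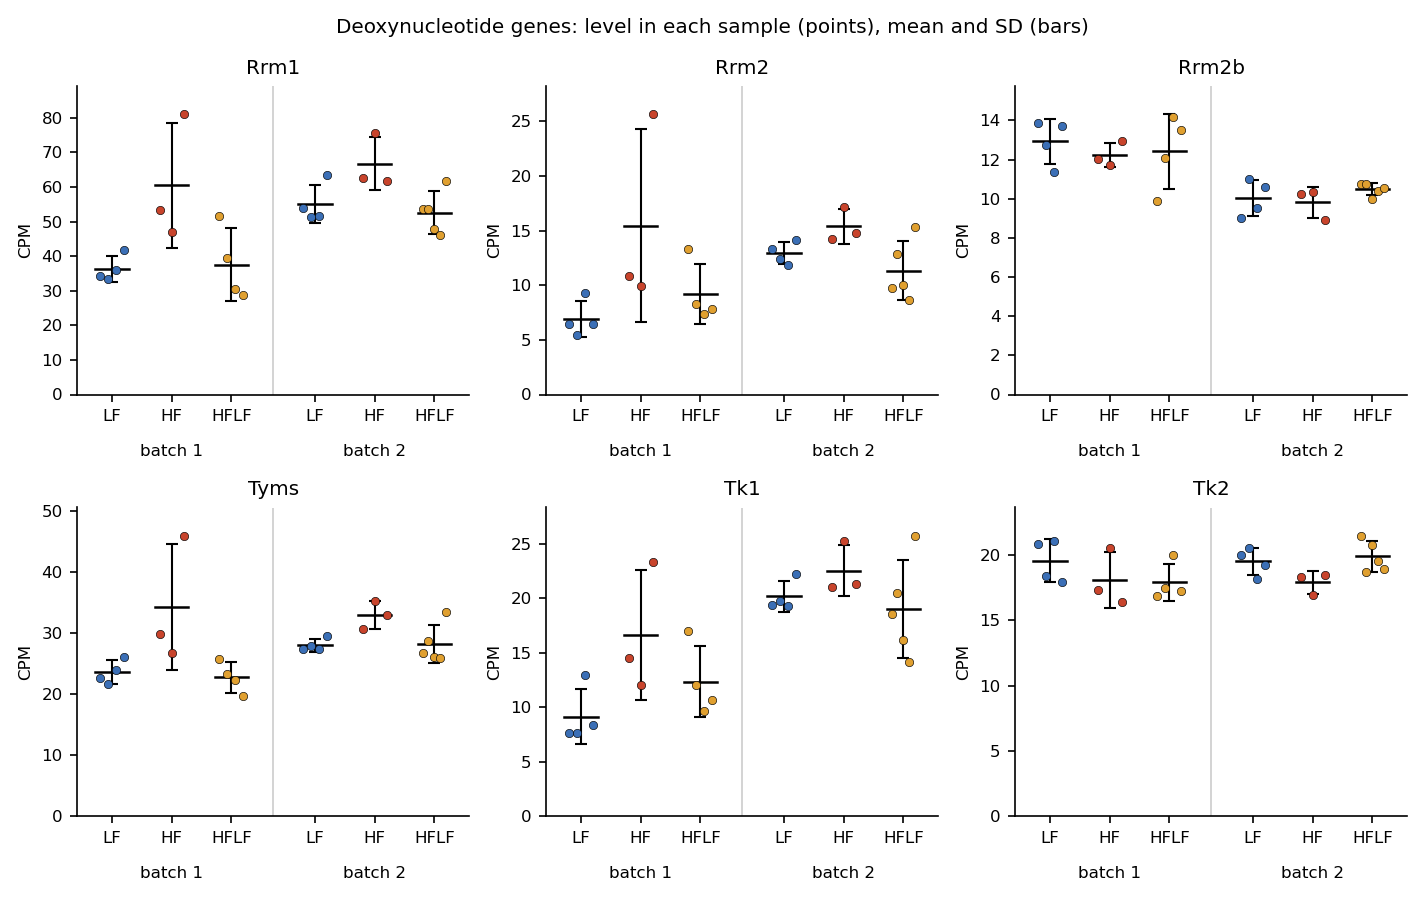
CPM (vertical axis, from 0) of Rrm1, Rrm2, Rrm2b, Tyms, Tk1 and Tk2 in each sample (points) of LF, HF and HFLF mice in batches 1 and 2, with the group mean and SD as bars. HF replicate 3 of batch 1 is the highest point for Rrm1, Rrm2 and Tyms, and the LF and HF samples of Rrm2b and Tk2 overlap in both batches.

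Among the 6 salvage genes, Hprt and Tk1 were called higher over both batches and the other 4 were not. Tk1, the cytosolic thymidine kinase, was at 7.65, 7.59, 12.9 and 8.34 CPM in LF, 14.5, 12.1 and 23.4 CPM in HF and 17.02, 12.1, 9.61 and 10.7 CPM in HFLF mice of batch 1. In batch 2 its values were 19.4, 19.8, 19.3 and 22.2 CPM in LF, 21.01, 25.2 and 21.4 CPM in HF and 18.6, 20.5, 16.1, 14.1 and 25.8 CPM in HFLF mice. LF and HF mice overlapped in both batches, and all 4 LF samples of batch 1 were below all 4 LF samples of batch 2. The fold change of Tk1 was 1.82 in batch 1 (adjusted p = 0.160), 1.11 in batch 2 (adjusted p = 0.482) and 1.41 over both (log2 0.50 ± 0.17 SE, adjusted p = 0.0325). Tk1 kept this call in 17 of 23 fits that left out 1 sample, with log2 values from 0.34 to 0.56. It was lost without LF replicate 1, 2 or 4 or HF replicate 1 or 3 of batch 1 (0.34 without the last) or HF replicate 2 of batch 2. Tk2, the mitochondrial kinase, was at 20.9, 18.4, 21.1 and 17.9 CPM in LF, 17.3, 20.5 and 16.4 CPM in HF and 16.9, 17.5, 20.01 and 17.3 CPM in HFLF mice of batch 1. In batch 2 Tk2 was at 20.03, 20.6, 18.2 and 19.3 CPM in LF, 18.3, 16.9 and 18.5 CPM in HF and 21.5, 18.7, 20.8, 19.6 and 18.96 CPM in HFLF mice. Its LF and HF samples overlapped in both batches, and in batch 2 every HF sample lay below every HFLF sample. Its log2 fold change over both batches was -0.12 ± 0.06 SE (adjusted p = 0.159), and the ratio Tk1 per Tk2 averaged 0.464 ± 0.106 (SD, n = 4) in LF and 0.949 ± 0.429 (n = 3) in HF mice of batch 1 and 1.04 ± 0.0910 (n = 4) and 1.26 ± 0.196 (n = 3) in batch 2.

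Hprt, which salvages hypoxanthine and guanine, was at 81.5, 74.2, 59.9 and 88.1 CPM in LF, 95.2, 78.9 and 109 CPM in HF and 90.3, 71.2, 87.3 and 78.1 CPM in HFLF mice of batch 1. In batch 2 it was at 69.7, 80.6, 73.7 and 89.1 CPM in LF, 91.7, 107 and 96.02 CPM in HF and 71.3, 85.6, 84.5, 74.03 and 80.1 CPM in HFLF mice. The HF samples of batch 2 were above all LF samples, and those of batch 1 overlapped with them. Hprt rose 1.25-fold in batch 2 (log2 0.33 ± 0.09 SE, adjusted p = 0.0411) and 1.25-fold over both batches (log2 0.32 ± 0.09 SE, adjusted p = 0.0108). Aprt, the adenine counterpart of Hprt, the deoxycytidine kinase Dck and the uridine-cytidine kinase Uck2 had log2 fold changes over both batches of 0.06, 0.15 and 0.07 and were not called.

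All 5 nucleotide kinases were called higher in HF mice over both batches, and 3 of them (Cmpk1, Nme1 and Nme2) in batch 2 alone. Their median log2 fold change was 0.36 in batch 1 and 0.39 in batch 2. Nme1, a nucleoside diphosphate kinase that makes triphosphates from diphosphates, was at 30.2, 24.9, 27.1 and 37.6 CPM in LF, 45.8, 37.6 and 65.8 CPM in HF and 37.2, 30.4, 30.3 and 29.2 CPM in HFLF mice of batch 1. In batch 2 Nme1 was at 43.1, 41.6, 41.4 and 48.5 CPM in LF, 50.6, 67.3 and 63.1 CPM in HF and 40.4, 49.1, 42.8, 37.1 and 52.8 CPM in HFLF mice. HF and LF samples were apart in batch 2, and in batch 1 LF replicate 4 equalled the lowest HF value at this precision. Nme1 rose 1.38-fold in batch 2 (log2 0.47 ± 0.12 SE, adjusted p = 0.0367) and 1.52-fold over both batches (log2 0.60 ± 0.11 SE, adjusted p = 0.00291), and in batch 1 the fold change was 1.66 (adjusted p = 0.139), the lowest adjusted p among the 38 genes there.

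Nme2, its neighbour on chromosome 11, was at 96.9, 79.05, 69.2 and 99.01 CPM in LF, 129, 90.3 and 142 CPM in HF and 106, 80.9, 110.1 and 88.5 CPM in HFLF mice of batch 1. In batch 2 Nme2 was at 109, 124, 113 and 142 CPM in LF, 154, 171 and 157 CPM in HF and 102, 142, 138, 113 and 129.6 CPM in HFLF mice. HF samples of batch 2 were above all LF samples, and in batch 1 HF replicate 2 lay among the LF values. The fold change was 1.31 in batch 2 (log2 0.39 ± 0.11 SE, adjusted p = 0.0435) and 1.36 over both batches (log2 0.44 ± 0.10 SE, adjusted p = 0.00718). Nme1 and Nme2 are closely similar in sequence and how reads that fit both were counted is not stated, so the split of reads between them is uncertain.

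Cmpk1, the UMP-CMP kinase, was at 637, 511, 465 and 629.7 CPM in LF, 776, 591 and 772 CPM in HF and 774, 508, 689.9 and 644 CPM in HFLF mice of batch 1. In batch 2 Cmpk1 was at 399, 496, 434 and 562 CPM in LF, 581, 705 and 604 CPM in HF and 394, 540.1, 484, 462 and 492 CPM in HFLF mice. The groups overlapped in batch 1 and were apart in batch 2. Cmpk1 rose 1.33-fold in batch 2 (log2 0.41 ± 0.12 SE, adjusted p = 0.0466) and 1.30-fold over both batches (log2 0.38 ± 0.11 SE, adjusted p = 0.0140). Guk1, which phosphorylates GMP and dGMP, was at 54.5, 53.1, 49.8 and 68.7 CPM in LF, 73.4, 65.7 and 70.3 CPM in HF and 66.9, 55.7, 63.5 and 53.6 CPM in HFLF mice of batch 1. In batch 2 Guk1 was at 74.5, 75.1, 76.7 and 73.5 CPM in LF, 82.8, 92.9 and 89.1 CPM in HF and 66.2, 80.1, 75.4, 69.96 and 79.1 CPM in HFLF mice. LF replicate 4 of batch 1 lay within the HF values, and no LF sample of batch 2 did. Guk1 rose 1.21-fold over both batches (log2 0.27 ± 0.07 SE, adjusted p = 0.00824). This was close to the fold threshold, and the call was lost without LF replicate 1, LF replicate 3 or HF replicate 1 of batch 1, with log2 values from 0.25 to 0.32 over the fits that left out 1 sample. In batch 2 its adjusted p was 0.0462, but the fold change of 1.18 was under the threshold.

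Dtymk, the thymidylate kinase, was at 13.9, 12.4, 13.5 and 17.9 CPM in LF, 18.6, 15.5 and 21.7 CPM in HF and 17.1, 14.9, 14.96 and 13.2 CPM in HFLF mice of batch 1. In batch 2 Dtymk was at 17.4, 17.1, 16.9 and 19.1 CPM in LF, 18.5, 23.4 and 20.5 CPM in HF and 15.3, 19.6, 17.6, 14.3 and 18.9 CPM in HFLF mice. The HF and LF ranges overlapped in both batches. Dtymk rose 1.23-fold over both batches (log2 0.30 ± 0.09 SE, adjusted p = 0.0199), and was at 0.26 and not called without HF replicate 3 of batch 1.

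**Figure D3:**
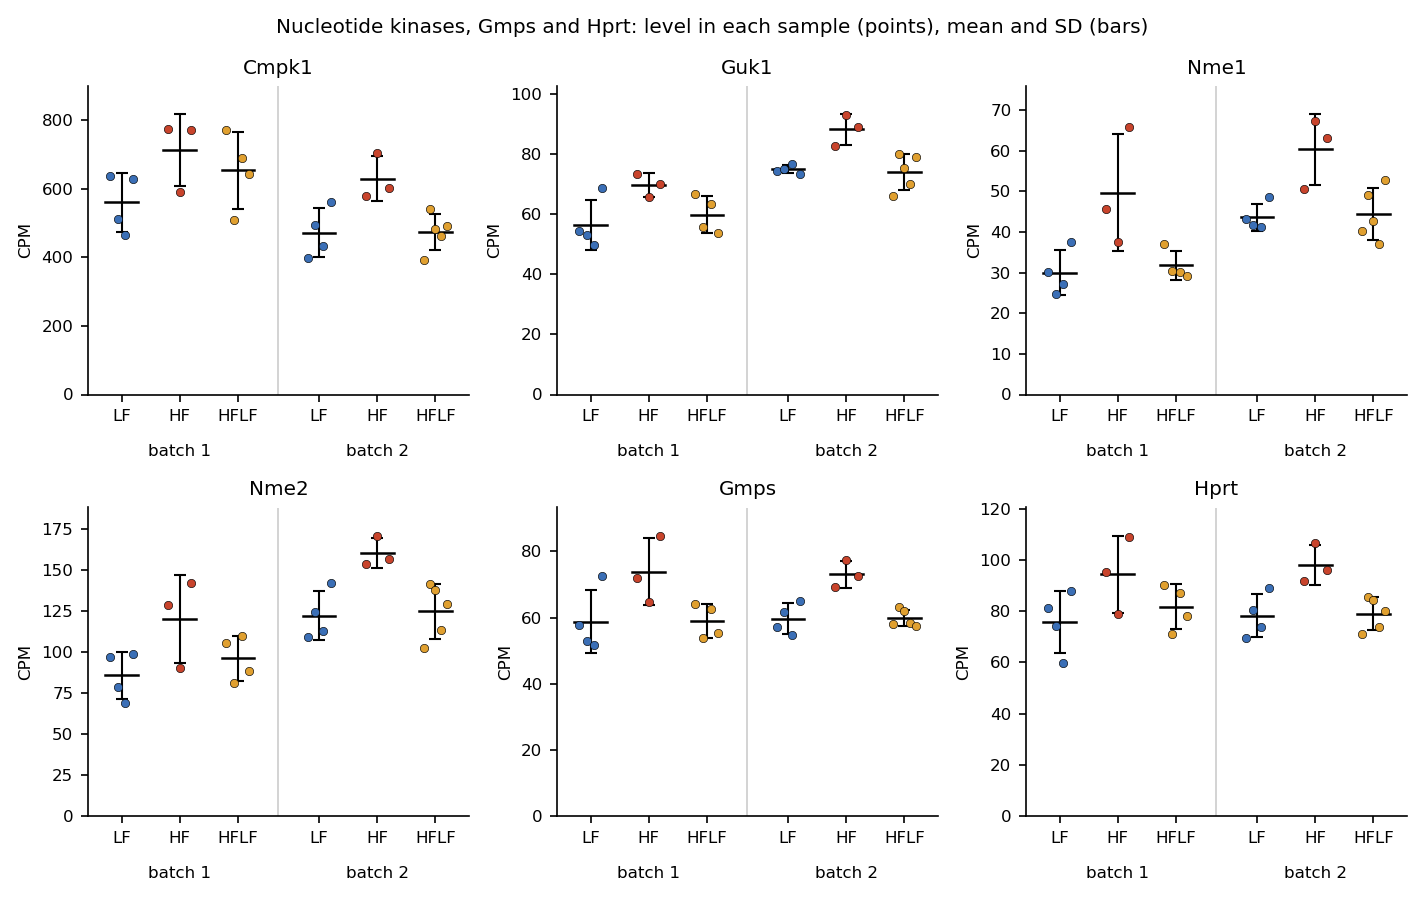
CPM (vertical axis, from 0) of Cmpk1, Guk1, Nme1, Nme2, Gmps and Hprt in each sample (points) of LF, HF and HFLF mice in batches 1 and 2, with the group mean and SD as bars. In batch 2 all 3 HF samples lie above all 4 LF samples for each of these genes.

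In the branches from IMP to AMP and GMP, Gmps alone of 5 genes was called higher. Gmps, the GMP synthetase that takes the last step to GMP, was at 57.8, 53.1, 51.7 and 72.5 CPM in LF, 71.9, 64.8 and 84.8 CPM in HF and 64.02, 53.8, 62.5 and 55.5 CPM in HFLF mice of batch 1. In batch 2 Gmps was at 57.2, 61.7, 54.6 and 65 CPM in LF, 69.3, 77.4 and 72.6 CPM in HF and 58.1, 63.1, 61.9, 58.5 and 57.6 CPM in HFLF mice. The highest LF sample of batch 1 exceeded 2 of the 3 HF samples there, and in batch 2 the groups were apart. Gmps rose 1.23-fold in batch 2 (log2 0.29 ± 0.07 SE, adjusted p = 0.0294) and 1.24-fold over both batches (log2 0.31 ± 0.07 SE, adjusted p = 0.00621). The IMP dehydrogenases, which take the step before it, were not called. Impdh1 was at 16.1, 16.3, 21.1 and 17.7 CPM in LF, 19.8, 18.9 and 17.1 CPM in HF and 21.6, 19.1, 20.8 and 19.7 CPM in HFLF mice of batch 1, and at 26.2, 21.9, 22.4 and 21.4 CPM, 22.01, 23.8 and 24.6 CPM and 20.04, 25.3, 21.9, 20.7 and 24.1 CPM in those of batch 2. Impdh2, the more abundant form, was at 85.2, 73.7, 77.3 and 87.5 CPM in LF, 92.2, 76.6 and 109.5 CPM in HF and 82.6, 76.6, 84.7 and 77.6 CPM in HFLF mice of batch 1, and at 101, 108, 93.8 and 112 CPM, 110.3, 115 and 108 CPM and 104, 113, 111, 105 and 103 CPM in those of batch 2. Diet groups overlapped for both genes in both batches, with log2 fold changes over both of 0.05 ± 0.07 SE (adjusted p = 0.634) and 0.15 ± 0.06 SE (adjusted p = 0.0744). Adss, the adenylosuccinate synthase of most tissues, was at log2 0.21 ± 0.06 SE (adjusted p = 0.0189), a fold change under the threshold, and Adssl1 at -0.71 ± 0.39 SE (adjusted p = 0.164) on few reads.

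Ctps, a CTP synthase, was the single gene of the de novo pyrimidine group to be called. It was at 13.4, 13.6, 14.3 and 21.3 CPM in LF, 19.6, 18.1 and 26.8 CPM in HF and 13.99, 16.6, 13.6 and 12 CPM in HFLF mice of batch 1. In batch 2 Ctps was at 17.9, 16.5, 16.9 and 16.9 CPM in LF, 19.3, 21.5 and 20.2 CPM in HF and 16.6, 18.5, 18.2, 14.97 and 17.3 CPM in HFLF mice. LF replicate 4 of batch 1 overlapped with HF mice, and the batch 2 groups were apart. Ctps rose 1.28-fold over both batches (log2 0.36 ± 0.10 SE, adjusted p = 0.0161), and was at 0.27 and not called without HF replicate 3 of batch 1. Its paralog Ctps2 was at log2 0.06 ± 0.06 SE (adjusted p = 0.434). The enzymes upstream, Cad, which takes the opening steps of the pyrimidine ring, the mitochondrial Dhodh and Umps, which yields UMP, were at log2 -0.11, 0.09 and 0.09 over both batches.

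None of the 6 enzymes of the purine ring was called. Over both batches, Pfas and Paics were at log2 -0.15 ± 0.08 SE and -0.04 ± 0.11 SE, Ppat, the amidotransferase that commits PRPP to purines, at 0.16 ± 0.07 SE, Gart at 0.12 ± 0.06 SE, Adsl at 0.16 ± 0.05 SE and Atic at 0.20 ± 0.06 SE. Adsl and Atic had adjusted p-values of 0.0327 and 0.0277 with fold changes of 1.12 and 1.15, under the threshold. In batch 2 Pfas was lower in all HF samples (47.4, 43.9 and 46.6 CPM) than in all LF samples (56.8, 48.5, 53.01 and 50.3 CPM), with an adjusted p of 0.103. Ppat and Paics are divergent neighbours on chromosome 5 with overlapping 5′ ends, and whether counting used strand is not stated. The PRPP synthetases Prps1 and Prps2 were likewise under the fold threshold over both batches (1.17-fold, adjusted p = 0.0386, and 1.19-fold, adjusted p = 0.0398), and Prps2 was called by DESeq2 and in 12 of 23 fits that left out 1 sample, Prps1 in 2. The folate enzyme Mthfd1, which supplies one-carbon units for purines, was at log2 0.07 ± 0.07 SE.

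In batch 1 the HF samples lay wholly apart from the LF samples for 3 genes (Rrm1, Rrm2 and Tyms, all higher in HF), where 6.29% of all genes were apart and higher. In batch 2 they did not overlap, with HF higher, for 13 of 38 genes, where 13.8% of all genes were. The difference between the batches in HF minus LF was tested as an interaction. None of the 38 genes had an adjusted p under 0.05 (lowest 0.728, Rrm2), and at an unadjusted p under 0.05 the difference was smaller in batch 2 for Rrm2 and Tk1; DESeq2 also gave 0. The median of the difference was -0.09 on the log2 scale against -0.02 over all 14385 genes.

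The next comparison set mice moved to the low-fat feed beside mice kept on the high-fat feed. All samples were taken after 43 weeks, so levels before the change of feed are not known. In HFLF mice compared with HF mice, several kinases and dNTP genes were lower. HFLF minus HF and HF minus LF share the HF samples, so their values are not independent and are given side by side. In batch 1 none of the 38 genes was called lower (0% of all genes), with 9 lower at an unadjusted p under 0.05 where 6.04% of all genes were, and DESeq2 called 0. HFLF samples were all below HF samples for 7 genes of batch 1 (Ctps, Dctd, Gart, Gmps, Nme1, Tyms and Uck2), where 4.07% of all genes were apart and lower. In batch 2, 6 genes were called lower (Gmps, Cmpk1, Nme1, Nme2, Rrm1 and Hprt), where 5.61% of all genes were, and 10 had an adjusted p under 0.05 at any fold, where 8.53% of all genes did. HFLF samples of batch 2 were below HF samples for 11 genes, where 12.4% of all genes were. The 6 calls became 0 without HF replicate 2, 1 without HF replicate 3, 2 without HFLF replicate 1 or 4, and 10 without HFLF replicate 2 or 5. Over both batches 10 genes were called lower and 0 higher, where 4.9% and 5.44% of all genes were, and 5 without HF replicate 3 of batch 1.

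Over both batches, Rrm1 in HFLF mice was at 0.70 of its level in HF mice (log2 -0.51 ± 0.12 SE, adjusted p = 0.0150), beside 0.51 ± 0.13 SE in HF minus LF. Rrm2 was at -0.61 ± 0.20 SE (adjusted p = 0.0396), Tyms at -0.40 ± 0.10 SE (adjusted p = 0.0147), Dut at -0.44 ± 0.11 SE (adjusted p = 0.0179) and Dctd at -0.41 ± 0.11 SE (adjusted p = 0.0224), all called lower. The kinases Nme1, Nme2 and Dtymk were called lower at -0.54 ± 0.11 SE (adjusted p = 0.00909), -0.34 ± 0.10 SE (adjusted p = 0.0292) and -0.29 ± 0.09 SE (adjusted p = 0.0328). Gmps and Ctps, the last steps to GMP and CTP, were called lower at -0.30 ± 0.07 SE (adjusted p = 0.0134) and -0.42 ± 0.10 SE (adjusted p = 0.0150). Of these 10 genes, Dctd, Dtymk, Dut, Nme2 and Rrm2 were not called without HF replicate 3 of batch 1. The call of Rrm2 was kept in 15 of 23 fits that left out 1 sample (log2 -0.72 to -0.33) and was also lost without HFLF replicate 2, 3 or 4 of batch 1 or HFLF replicate 1, 3 or 4 or HF replicate 2 of batch 2. Dtymk was also lost without HFLF replicate 4 or HF replicate 1 of batch 1 or HF replicate 2 of batch 2, and Nme2 without HF replicate 1 of batch 1 or HF replicate 2 of batch 2. Hprt and Guk1 had adjusted p-values of 0.0371 and 0.0224 but stayed under the fold threshold (-0.26 and -0.23), and Cmpk1 (-0.27 ± 0.10 SE, adjusted p = 0.0716) and Tk1 (-0.34 ± 0.17 SE, adjusted p = 0.135) did not pass the test. In the 23 fits that left out 1 sample, Hprt was called lower in 14, Cmpk1 in 4, and Guk1 and Tk1 in 1 each. Rrm2b, Tk2 and Samhd1 were at 0.07, 0.08 and 0.16.

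Between HFLF and LF mice no gene of the 38 was called in batch 1, in batch 2 or over both, where 0%, 0.00696% and 0% of all genes were called in either direction, and DESeq2 called 0 of them as well. At an unadjusted p under 0.05 there was 1 gene in each fit, Samhd1 in batch 1 and over both batches (log2 0.25 ± 0.08 SE, adjusted p = 0.980) and Ppat in batch 2. The median log2 fold change was 0.009 in batch 1, -0.004 in batch 2 and 0.010 over both, beside 0.002, 0.005 and 0.009 over all genes. Rrm2 and Tk1 were at log2 0.41 ± 0.30 SE and 0.43 ± 0.24 SE in batch 1 and -0.19 ± 0.14 SE and -0.08 ± 0.14 SE in batch 2. A p that misses the threshold does not show that HFLF and LF mice were alike.

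Of 64 other tested genes of nucleotide metabolism, listed by pathway, 8 were called higher and 1 lower in HF minus LF over both batches, where 9% of all genes were called higher and 9.11% lower, so the higher calls were near that share. Their median log2 fold change was 0.08. Called higher in the folate and one-carbon list (16 genes tested) were, among others, Mthfd2, a mitochondrial enzyme of one-carbon supply (2.47-fold, log2 1.30 ± 0.33 SE, adjusted p = 0.00968), and Aldh1l2, which oxidizes mitochondrial formyl-folate (2.23-fold, adjusted p = 0.0108). Of 18 other kinases and salvage enzymes, Ak6 (1.33-fold, adjusted p = 0.0125) and Nme6 (1.22-fold, adjusted p = 0.0191) were called higher. Of 30 genes of nucleotide breakdown and transport, the adenosine deaminase Ada (1.33-fold, adjusted p = 0.0316), the inosine triphosphatase Itpa (1.23-fold, adjusted p = 0.0102) and the urate oxidase Uox (1.29-fold, adjusted p = 0.0301) were called higher. In HFLF minus HF over both batches 4 of the 64 were called higher and 3 lower, where 5.44% and 4.9% of all genes were. Mthfd2 was among the lower at log2 -1.17 ± 0.32 SE (adjusted p = 0.0222).

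Markers of proliferating cells (19 genes, among them Mki67, Pcna and the Mcm genes) were measured beside the dNTP genes. Their summed level was 467, 445, 709 and 518 CPM in LF, 770.3, 659 and 1112 CPM in HF and 830.3, 600.3, 492 and 593 CPM in HFLF mice of batch 1. In batch 2 it was 964, 864, 877 and 879 CPM in LF, 932, 1056 and 923 CPM in HF and 868, 876, 725, 755 and 1070 CPM in HFLF mice. HF replicate 3 of batch 1, which was highest for Rrm1, Rrm2 and Tyms, was also highest here. The HF to LF ratio of the means was 1.58 in batch 1 (two-sided exact permutation test, p = 0.114, adjusted p = 0.343 over 14 tests). In batch 2 the ratio was 1.08 (exact permutation p = 0.171, adjusted p = 0.343). The smallest two-sided p that 3 against 4 samples allow in this test is 0.0571. Over both batches 11 of the 19 markers were called higher in HF minus LF and 0 lower, where 9% of all genes were called higher and 9.11% lower. In batch 1 alone 0 were called (0% of all genes), and in batch 2 alone 0 (3.03% of all genes higher and 4.4% lower). Over both batches Pcna was at log2 0.32 ± 0.08 SE, Mcm2 at 0.33 ± 0.12 SE and Mki67, which was not called, at 0.23 ± 0.18 SE. In HFLF minus HF over both batches all 19 markers were lower (median log2 -0.35). Of these, 6 were called lower (Mcm2, Mcm4, Mcm5, Mcm6, Mcm7 and Pcna), where 4.9% of all genes were. In that comparison 0 were called lower in batch 1 (0% of all genes) and 0 in batch 2 (5.61% of all genes). The part of these markers in the change of the dNTP genes was not tested.

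**Figure D4:**
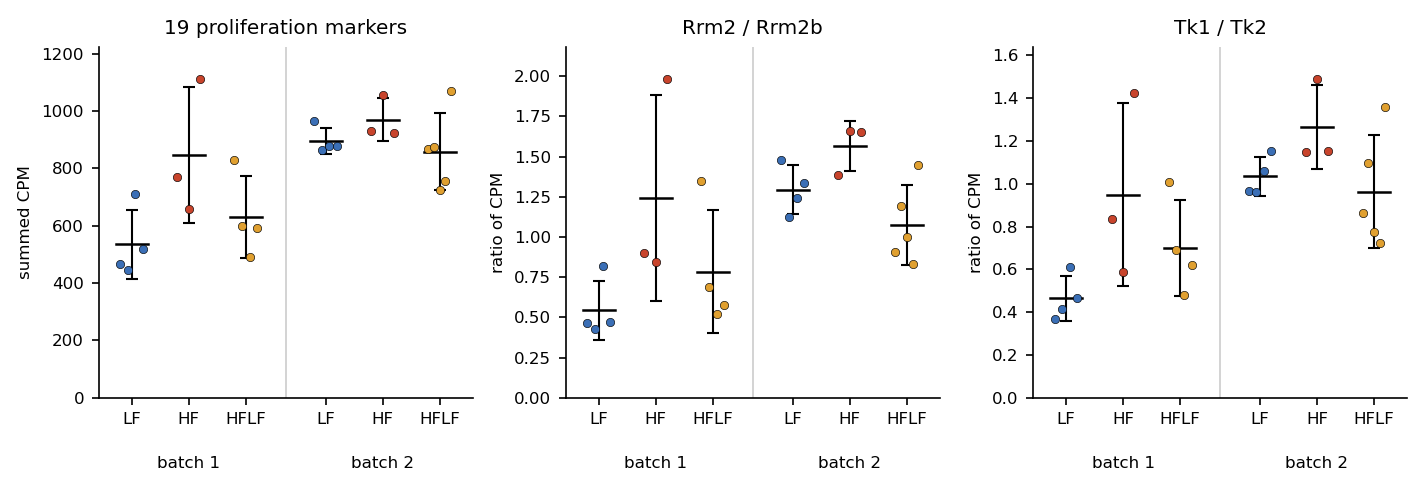
Summed CPM of 19 proliferation markers and the CPM ratios Rrm2 per Rrm2b and Tk1 per Tk2 (vertical axes, from 0) in each sample (points) of LF, HF and HFLF mice in batches 1 and 2, with the group mean and SD as bars. In batch 1 HF replicate 3 is the highest point in all 3 panels, at 1112 CPM, 1.98 and 1.42.

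Other cell types were also followed. The smooth muscle, stroma and endothelium list (16 genes) summed to 15.1 to 132 CPM in batch 1 and 24.3 to 89.7 CPM in batch 2, and lymphocyte and myeloid markers (14 of 17 found) to 19.4 to 34.0 and 16.8 to 24.5 CPM, with no marker at 0 in all samples. The lowest stroma sum, 15.1 CPM, was that of HF replicate 3 of batch 1. The HF to LF ratio of the stroma sum was 0.884 in batch 1 (exact permutation p = 0.743) and 0.566 in batch 2 (exact permutation p = 0.114), and that of the immune sum 0.820 (exact permutation p = 0.114) and 0.968 (exact permutation p = 0.971). Ratios for the epithelial, stem cell, colonocyte and goblet lists lay between 0.889 and 1.18. The lowest of these was that of the goblet list in batch 2, with the lowest exact permutation p of the 14 tests (0.0571). Its HF sums (29756 to 33657 CPM) were all below its LF sums (33736 to 40625 CPM). With 3 against 4 samples no list could reach a two-sided p under 0.05, with or without adjustment over the 14 tests. These tests therefore do not show that the lists were alike between diets. Gene by gene over both batches in HF minus LF, all 15 tested stroma genes were lower (median log2 -1.0), with Pdgfra called, and 9 of 10 tested immune genes were lower (median -0.31), with none called. The goblet genes Agr2, Spink4 and Tff3 (3 of 8), the colonocyte gene Guca2b (1 of 11) and the stem cell gene Smoc2 were called higher, the stem cell genes Axin2 and Rnf43 lower (3 of 8 stem cell genes in all), and none of the 11 epithelial genes was called. In this fit 9% of all genes were called higher and 9.11% lower, so 1 of 11 colonocyte genes was near that share. The summed goblet level was at 0.910 and 0.889 of the LF mean in batches 1 and 2, although these 3 goblet genes were higher. In HFLF minus HF over both batches, 14 of 15 tested stroma genes were higher (median log2 0.97). Of the 10 tested immune genes, 9 were higher (median 0.31), and none of either list was called. Axin2 was called higher and Guca2b lower, and no epithelial or goblet gene was called. In that fit 5.44% of all genes were called higher and 4.9% lower. The part of these cells in the results was not tested.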

How the data were processed

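Colonic epithelium RNA from 23 samples was analysed as described above. Per the labels and the study's methods, the authors trimmed reads with cutadapt (1.2.1), mapped them to mm10 with STAR (2.5) and deposited raw counts per gene from featureCounts (1.5.0-p1), without normalization. The handling of multi-mapping reads and strand is not given in the sources used here. Of 24917 loci, 5109 had no count. Reads carry no molecular identifiers, the labels do not say that each sample is a separate mouse, and p-values measure only the spread between samples. Library totals were 29189922 to 46498521 in batch 1 and 31607019 to 65320947 in batch 2. Counts were fitted in R 4.3.3 with edgeR 4.0.16 (TMM, filterByExpr by diet, quasi-likelihood F test), keeping 14428, 14377 and 14385 genes in batch 1, batch 2 and both batches with batch as a covariate. Standard errors were derived from the F statistic, and CPM was scaled by TMM within a batch. DESeq2 1.42.0 and limma 3.58.1 were alternatives. The scripts were tested on simulated data. Genes were called when they changed more than 1.2-fold at a Benjamini-Hochberg adjusted p below 0.05. Marker sums were compared by two-sided exact permutation tests. The members and lists were chosen with earlier results of these data known. Values in every sample are given for genes called in batch 2 or over both batches and for the pairs Rrm2 and Rrm2b, Tk1 and Tk2, Impdh1 and Impdh2, and Nme1 and Nme2, and other pathway genes were named where called over both batches, at most 4 per list and direction, apart from some that are not reported here. Levels per kilobase used exon lengths of GENCODE M21.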

Additional observations from a re-analysis of the deposited data

Results flagged for a closer look

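Of 100 groups of 4 or 5 samples examined, 8 held a sample whose gap to its nearest neighbour was large for the range of its group by Dixon's criterion, and chance alone gives about 1 group in 20. Among LF mice of batch 1, replicate 4 was high for Ctps (21.3 CPM, the others 13.4 to 14.3) and for Dctd (5.89 CPM, the others 3.61 to 3.96), and replicate 3 was high for Tk1 (12.9 CPM, the others 7.60 to 8.34). Among HFLF mice of batch 1, replicate 1 was high for Nme1 (37.2 CPM, the others 29.2 to 30.4) and for Rrm2 (13.3 CPM, the others 7.40 to 8.32). Among LF mice of batch 2, replicate 4 was high for Tk1 (22.2 CPM, the others 19.3 to 19.8), and replicate 1 had the highest sum of proliferation markers (964 CPM, the others 864 to 879) and of lymphocyte and myeloid markers (24.5 CPM, the others 17.5 to 17.99). HF groups of 3 samples were not examined in this way.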

How the results depend on the processing

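For the values of single members that the report prints, apart from fits that left out 1 sample, 521 alternative values kept their direction and call, 16 gained a call and 3 lost it. The losses were Tk1 in HF minus LF under the replicate block and Rrm2 in HFLF minus HF under the replicate block and with only the compared groups, all over both batches. With 1 sample left out, 1640 kept both, 69 lost a call, 44 gained one and 7 changed sign. Of the counts, DESeq2 gave 5 members called in HF minus LF of batch 1 against 0, and in HFLF minus HF of batch 2 the replicate block gave 11 and no fold threshold 10 against 6. The cause was not tested, beyond what the last alternative removes by construction. Leaving out 1 sample at a time gave 0 to 7 calls in HF minus LF and 0 in HFLF minus HF of batch 1, 0 to 7 and 0 to 10 in batch 2, and 7 to 16 and 5 to 14 over both batches, and 0 in HFLF minus LF throughout. The log2 value of Rrm2b in HF minus LF of batch 2 ranged from -0.08 to 0.03 and changed sign to 0.01 without LF replicate 2 and to 0.03 without HF replicate 3, and that of Impdh1 to -0.0024 without HF replicate 3. Paics in HF minus LF over both batches ranged from -0.09 to 0.01, above 0 without LF replicate 1 or 2 of batch 1 or LF replicate 2 of batch 2, and Tk1 in HFLF minus LF of batch 2 from -0.22 to 0.01, above 0 without HFLF replicate 4. Whether the numbers pair samples within a batch was not settled. Deviations of same-numbered samples of other diets within a batch correlated at -0.470 to 0.474 (median 0.096, 10 of 20 pairs over 0.1). Those of other-numbered samples correlated at -0.498 to 0.515 (median -0.021, 19 of 67 pairs over 0.1). Between batches within a diet, same-numbered samples correlated at -0.370 to 0.239 (median -0.052, 4 of 11 pairs over 0.1). Other-numbered samples there correlated at -0.339 to 0.413 (median -0.004, 11 of 34 pairs over 0.1). With the replicate block, calls in HF minus LF were 0, 5 and 13 and in HFLF minus HF 0, 11 and 11 in batch 1, batch 2 and both. With same-numbered samples of the batches treated as 1 mouse, calls over both batches were 14 in HF minus LF and 11 in HFLF minus HF. That fit used limma, and its estimated correlation between same-numbered samples was -0.1024. A negative correlation does not enlarge the errors for repeated mice. The fit therefore cannot show whether a mouse was counted more than once. Among the members, depth limits Adssl1 most, at 2 to 17 reads.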

Other observations

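The balance between related enzymes was described per sample as a ratio of CPM, without a test. Nme2 per Nme1 averaged 2.89 ± 0.348 (SD, n = 4) in LF, 2.46 ± 0.328 (n = 3) in HF and 3.04 ± 0.425 (n = 4) in HFLF mice of batch 1, and 2.80 ± 0.206 (n = 4), 2.69 ± 0.308 (n = 3) and 2.83 ± 0.330 (n = 5) in batch 2. Rrm1 per Rrm2, large against small subunit of ribonucleotide reductase, averaged 5.44 ± 1.17 (n = 4), 4.27 ± 0.970 (n = 3) and 4.10 ± 0.465 (n = 4) in LF, HF and HFLF mice of batch 1, and 4.26 ± 0.194 (n = 4), 4.33 ± 0.126 (n = 3) and 4.76 ± 0.663 (n = 5) in batch 2. Ctps per Ctps2 averaged 0.546 ± 0.131 (n = 4), 0.703 ± 0.118 (n = 3) and 0.482 ± 0.0808 (n = 4) in batch 1, and 0.553 ± 0.0455 (n = 4), 0.644 ± 0.0441 (n = 3) and 0.539 ± 0.0453 (n = 5) in batch 2. Samhd1, which degrades dNTPs, averaged 50.9 ± 6.61 CPM in LF, 56.7 ± 10.2 CPM in HF and 65.4 ± 8.65 CPM in HFLF mice of batch 1, and 49.0 ± 6.59, 49.5 ± 1.85 and 53.7 ± 3.12 CPM in batch 2.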
